A study of Mus musculus with 4 samples.

Results

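Cell cycle and DNA replication genes were followed in the liver of mice. The Affymetrix MG_U74Av2 array was run on 4 samples, 2 from controls and 2 from mice labelled hepatic reductase null, with the replicate numbers 7 and 8 in each genotype. The members were the probe sets that the platform annotation gives to 1 symbol only and whose symbol starts with Ccna, Ccnb, Ccnd, Ccne, Ccng, Cdk, Cdc with a digit, Mcm2 to Mcm7 or Gadd45, or is Pcna, Mki67, Top2a, Rrm1, Rrm2, Tyms, Plk1, Aurka or Bub1. They came to 96 probe sets of 73 genes, out of 12422 probe sets that are not controls. Tyms had only 2 probe sets, each also given to a pseudogene, and so had no member. The genes taken by name as brakes on the cycle (Cdkn* and Gadd45*, 12 genes on 15 probe sets) were kept apart from the other 61 genes on 81 probe sets. Since the choice goes by name, it also takes genes with other work, such as the GTPase Cdc42 and its effectors, kinases of transcription (Cdk7, Cdk8, Cdk9) and the chaperone Cdc37.

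The null mice carry a deletion of a reductase in the liver. The reductase is read here as Por (cytochrome P450 oxidoreductase), the electron donor of microsomal P450 enzymes, which the known mouse line of this name lacks in hepatocytes while other liver cells keep it. The annotation used here gives no probe set to Por by symbol, gene ID or RefSeq accession and leaves 1193 probe sets unnamed, so the deletion was not checked. The labels give no strain, age, sex or promoter for the deletion. They speak of pools of 3 animals per genotype while the titles of the control arrays speak of a mouse, so the p-values measure the spread between these arrays and that spread may be partly technical.

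Most hepatocytes of adult liver rest outside the cell cycle and can re-enter it after injury or loss of tissue. D cyclins with Cdk4 carry a cell through G1, cyclin E with Cdk2 starts DNA replication, the Mcm helicase and Cdc45 unwind the origins, and cyclins A and B with Cdk1 lead into mitosis. Cdkn proteins block the kinases, and Gadd45 proteins are stress-induced and can hold cells back. Whole liver RNA cannot tell fewer cells of a type from less RNA per cell.

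No cell cycle gene passed the threshold of an adjusted p of 0.05 between null and control liver. Of the 54 member probe sets bright enough to be tested, which stand for 48 genes, 0 were called higher and 0 lower by limma, against 22 higher (0.304%) and 6 lower (0.0829%) among all 7241 probe sets tested, 0.387% in all. The smallest adjusted p of a member was 0.229, of Cdc34. At an unadjusted p under 0.05 there were 5 member probe sets higher and 4 lower, 16.7% in all, and the array as a whole had 6.16% higher and 6.46% lower, together 12.6% of probe sets tested. Signals are the deposited intensities on a linear scale, and changes are null minus control on log2 signals after a floor of 7.1, the 25th percentile of all signals.

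The changes of the 41 tested cycle genes other than brakes had a median of 0.16 on the log2 scale and a median size of 0.31, and 26 were positive and 15 negative. Over all probe sets tested the median change was -0.01 and the median size 0.22. The positive median was smaller without null replicate 8 (0.07) or control replicate 7 (0.10). The arrays of the genotypes did not overlap for 21 of these 41 genes, 14 with null higher and 7 with null lower, or 51.2%. Among all probe sets tested 20.4% had null higher without overlap and 23.4% null lower, or 43.8% in all. The 95% interval of the change, not adjusted for the number of genes, lay within 1 of 0 on the log2 scale for 27 of the 41 genes (65.9%) and for 3 of the 7 tested brakes (42.9%), and did so for 66.9% of all probe sets tested. For these 30 genes a change of 2-fold or more lay outside the interval, and for the rest it lay inside. Counted by gene through the brightest probe set, as the members are, all 5510 tested genes had a median size of 0.21. Of them 44.9% did not overlap and 70.1% had the interval within 1 of 0.

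**Figure D1:**
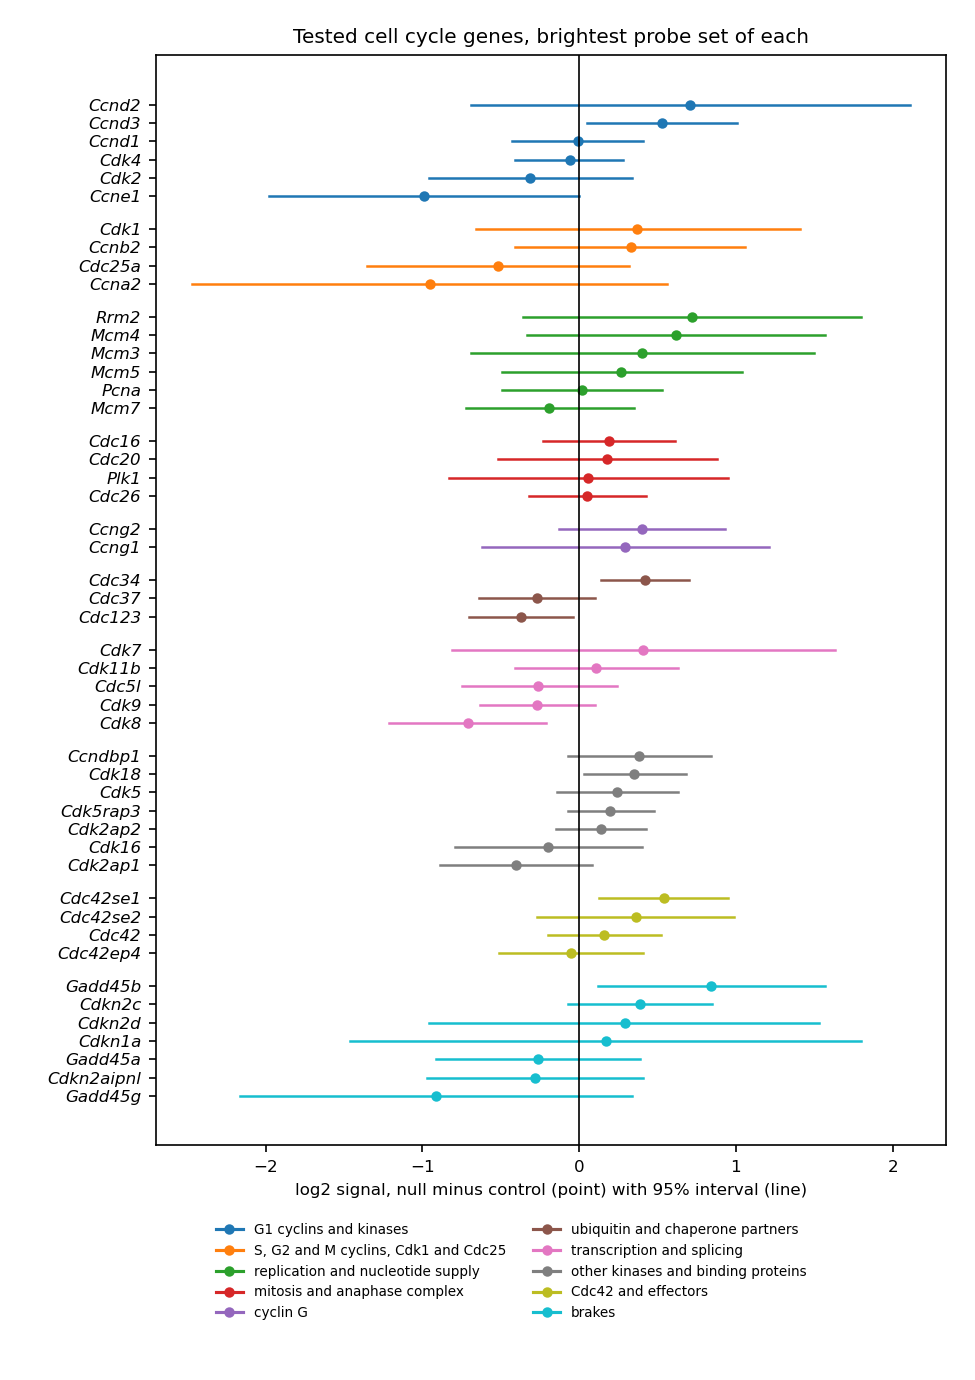
Change of each of the 48 tested cell cycle genes in null against control liver on the log2 scale (horizontal axis), as the limma estimate (point) and its unadjusted 95% interval (line), coloured by role and shown for the brightest tested probe set of each gene, with 2 arrays per genotype. Changes run from -0.99 for Ccne1 to 0.84 for Gadd45b, and the intervals of most genes cross 0.

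**Figure D2:**
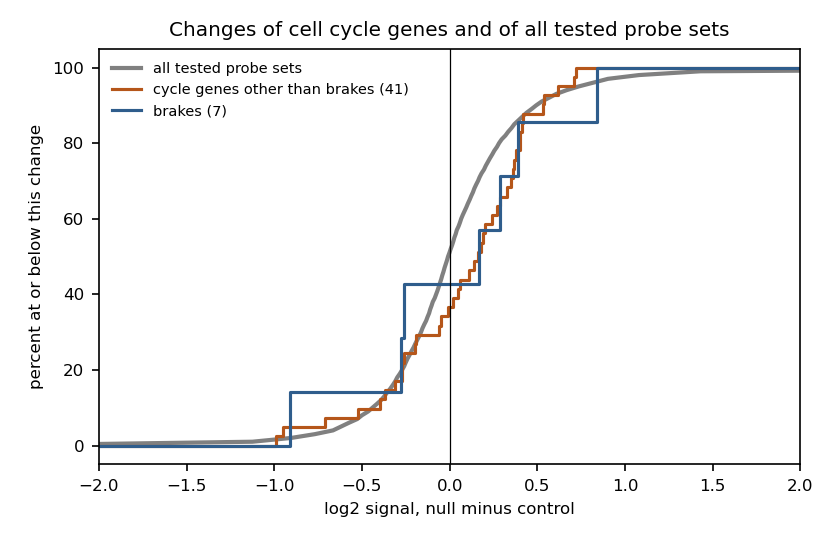
Share of genes (vertical axis, percent) with a change at or below the value on the horizontal axis (log2 signal, null minus control) for the 41 cycle genes other than brakes, the 7 tested brakes and all 7241 tested probe sets. The median lies at 0.16 for the cycle genes, 0.17 for the brakes and -0.01 for all probe sets. The members are among these probe sets, so they lie within the range of all by construction.

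Members are given below by role, each by its brightest tested probe set unless another is named. The G1 cyclins and kinases split by gene. Cyclin D3 (Ccnd3) gave signals of 98.2 and 73.1 in control liver and 129.7 and 115.7 in null liver. Both null arrays lay above both control arrays, with a change of 0.53 ± 0.20 (log2, SE) that did not pass (adjusted p = 0.346). Cyclin E1 (Ccne1), the partner of Cdk2 at the start of replication, gave 80.8 and 40.2 in control and 22.2 and 36.9 in null liver. Its null arrays lay below its control arrays, but the lower control array was close to the higher null array, and the change was -0.99 ± 0.42 (adjusted p = 0.395). Without control replicate 7 it was -0.49.

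Cyclin D1 (Ccnd1), the G1 cyclin most tied to hepatocyte proliferation, had a pair of probe sets that disagreed. The brighter gave 128.5 and 114.8 in control and 108.8 and 133.2 in null liver, a log2 change of -0.01 with an interval of -0.43 to 0.41. The dimmer gave 36.8 and 56.1 in control and 28.3 and 10.0 in null liver, a log2 change of -1.43 ± 0.54 that did not pass (adjusted p = 0.346) and ranged from -2.18 to -0.68 with arrays left out. The brighter probe set showed overlapping genotypes and the dimmer showed null below control, so no direction is given for Ccnd1.

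Cyclin D2 (Ccnd2) overlapped between genotypes, with 10.4 and 18.6 in control and 32.2 and 16.1 in null liver (log2 change 0.71 ± 0.59). Cdk4, the kinase of the D cyclins, was even over the arrays, with 169.7 and 171.4 in control and 154.9 and 171.7 in null liver, a log2 change of -0.06 with an interval of -0.41 to 0.28. A dimmer probe set of Cdk4 stood at -0.08 ± 0.40. Cdk2 gave 58.7 and 49.6 in control and 35.7 and 52.9 in null liver, which overlapped (log2 change -0.31 ± 0.27).

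The genes of S phase and mitotic entry are known for promoter motifs that regulators of the cycle bind. RefSeq promoter windows (GRCm38.p6, 250 bases before to 50 after a start) were found for 63 of the 73 genes, 74 windows in all. The E2F motif was searched on both strands as TTTCCCGC, TTTGGCGC, TTTCGCGC or TTTGCCGC, the CHR, a motif of G2 and M phase genes, as TTTGAA or TTCGAA, and the CCAAT box as CCAAT. E2F letters stood in 9 of 74 member windows (12.2%) and in 2.26% of all 32851 windows. CHR letters stood in 17 member windows (23.0%) and in 19.2% of all windows, and CCAAT in 45 (60.8%) and 37.4%. The 6 tested genes with E2F letters had a median log2 change of 0.04, from -0.52 to 0.40, and the 37 tested genes with a window but without those letters had 0.16. The 7 tested genes with CHR letters had a median of 0.06, from -0.20 to 0.37. Matches are descriptions of letters in these windows, and no test was made on them.

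The 250 bases before the start of Cdk1 (chr10:69352913-69353162, minus strand) and of cyclin B2 (Ccnb2, chr9:70421555-70421804, minus strand) are shown because each holds matches to different motifs. They run 5′ to 3′ on the strand of the gene, with every match on either strand in capitals. Cdk1 has E2F, CHR and CCAAT letters, and Ccnb2 has CHR and CCAAT letters.
Cdk1: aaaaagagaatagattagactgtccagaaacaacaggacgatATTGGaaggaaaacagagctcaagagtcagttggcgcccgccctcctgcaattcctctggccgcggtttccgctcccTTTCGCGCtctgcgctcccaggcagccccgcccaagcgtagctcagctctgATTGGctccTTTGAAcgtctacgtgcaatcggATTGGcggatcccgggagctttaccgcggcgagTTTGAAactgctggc
Ccnb2: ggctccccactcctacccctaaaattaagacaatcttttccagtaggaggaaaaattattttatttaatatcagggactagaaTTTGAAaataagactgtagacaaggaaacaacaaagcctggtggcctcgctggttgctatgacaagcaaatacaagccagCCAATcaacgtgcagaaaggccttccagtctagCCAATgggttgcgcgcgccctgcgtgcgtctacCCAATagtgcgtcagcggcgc

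In the signals, Cdk1, the kinase of mitotic entry, gave 20.3 and 22.2 in control and 20.1 and 37.6 in null liver. Null replicate 8 alone was high, the genotypes overlapped, and the log2 change of 0.37 ± 0.44 became -0.08 without that array. Ccnb2, a mitotic cyclin, gave 28.2 and 43.6 in control and 39.8 and 48.6 in null liver and overlapped (log2 change 0.33 ± 0.31). Cyclin A2 (Ccna2), of S phase and G2, gave 27.2 and 39 in control liver and 31.9 and 8.9 in null liver. Here null replicate 8 was the low array, so the array that was highest for Cdk1 and Ccnb2 was lowest for Ccna2, and the log2 change of -0.95 ± 0.64 became -0.03 without it. Cdc25a, a phosphatase that activates the kinases, gave 55.9 and 32.5 in control and 26.4 and 33.5 in null liver (log2 change -0.52 ± 0.35), and its other probe set lay below the floor on all arrays. Cdc25c and Ccna1 were not bright enough to be tested, nor was Ccne2 among the G1 genes.

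Among the replication genes no Mcm helicase subunit passed, and Mcm2 and Mcm6 were too dim to be tested. Mcm4 gave 17.5 and 20.9 in control and 24.4 and 35.3 in null liver. The genotypes did not overlap for Mcm4 (log2 change 0.62 ± 0.40, adjusted p = 0.577). Mcm3 gave 21.5 and 32.9 in control and 23.6 and 52.5 in null liver (0.40 ± 0.46), and its probe set is of a kind (_s_at) that can bind related transcripts. Mcm5 gave 26.3 and 36.2 in control and 32.4 and 43.0 in null liver (0.27 ± 0.32). A dimmer Mcm5 probe set, which was not tested, went the other way, with 28.3 and 11.0 in control and 6.7 and 7.1 in null liver. Mcm7 gave 60.2 and 54.9 in control and 45.5 and 56.2 in null liver, a log2 change of -0.19 with an interval of -0.72 to 0.35.

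Mcm2 was below the floor on both control arrays (4.6 and 5.0) and gave 8.0 and 35.9 on the null arrays. Null replicate 8 alone stood well above the floor for Mcm2, and null replicate 7 was just above it. Mcm6 was below the floor on every array, with signals of 0.6 to 1.6. Pcna, the sliding clamp of the polymerases, gave 78.4 and 89.3 in control and 72.5 and 98.7 in null liver. The genotypes overlapped for Pcna and its log2 change was 0.02, with an interval of -0.49 to 0.53.

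The ribonucleotide reductase subunits make the DNA precursors. Rrm2 gave 13.4 and 16.9 in control and 28.0 and 21.9 in null liver, with no overlap (log2 change 0.72 ± 0.46, adjusted p = 0.572). Rrm1 was not bright enough for the test, with 12.6 and 5.5 in control and 27.6 and 14.6 in null liver, and the lower null array lay above the higher control array there too. Its other probe set went the other way, with 2.1 and 9.0 in control and 1.9 and 0.9 in null liver, all but 1 of them below the floor.

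Cdc45, which joins the Mcm ring to form the active helicase, had lower signals on the null arrays. It gave 28.0 and 36.7 in control and 6.3 and 4.5 in null liver, both below the floor. This is at least 4.51-fold lower in null liver against the floor, but the probe set was under the filter and had no test. With every probe set tested by limma, its log2 change was -2.17 with an adjusted p of 0.252, and it did not pass. No probe set of the array passed in that setting, so it cannot decide on Cdc45. Cdc6, which loads the Mcm ring, gave 8.1 and 5.4 in control and 16.1 and 12.2 in null liver, all close to the floor. Cdc7, the kinase that fires the origins, lay between 2.3 and 8.6. The 250 bases before the Cdc45 start (chr16:18811973-18812222, minus strand), shown for the gene with the largest difference below the filter, hold CHR and CCAAT letters (capitals) and no E2F letters.
Cdc45: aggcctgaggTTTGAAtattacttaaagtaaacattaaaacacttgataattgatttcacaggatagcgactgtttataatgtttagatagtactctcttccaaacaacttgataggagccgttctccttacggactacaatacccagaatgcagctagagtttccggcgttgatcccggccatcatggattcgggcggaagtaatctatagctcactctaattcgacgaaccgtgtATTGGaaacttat

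Mitotic genes were dim or even between genotypes. Mki67, the Ki-67 proliferation antigen, was near or below the floor on its probe sets, with 1.3 and 6.7 in control and 12.4 and 7.7 in null liver on one and 14.4 and 3.4 in control and 13.6 and 10.7 in null liver on the other. The first placed both null arrays above both control arrays, and the second overlapped. Top2a, the topoisomerase of dividing cells, stayed below the floor on all arrays at 1.2 to 3.4, as did each of the 3 probe sets of Bub1, a spindle checkpoint kinase. Aurka, a centrosome kinase, lay between 2.5 and 10.7. Cdc23, of the anaphase-promoting complex, was near the floor too, with 4.5 and 10.5 in control and 21.1 and 7.9 in null liver on its brighter probe set.

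Cdc20, an activator of the anaphase-promoting complex, gave 61.2 and 36.7 in control and 50.5 and 57.2 in null liver (log2 change 0.18 ± 0.29). Plk1, a mitotic kinase, gave 40.8 and 23.0 in control and 29.0 and 35.2 in null liver on its brightest probe set. It was at 0.06 ± 0.37 there and at -0.63 ± 0.56 on another tested probe set, and both are of kinds that can bind related transcripts. The complex subunits Cdc16 (0.19, interval -0.23 to 0.61) and Cdc26 (0.05, interval -0.32 to 0.43) changed by little on the log2 scale. Cdc26 gave 105.4 and 112.4 in control and 112.8 and 113.1 in null liver, so its genotypes did not overlap although they were almost equal.

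Of the 34 genes in these 4 roles (G1, S to M, replication, mitosis), 20 were tested and 14 had no tested probe set. Of the 20 tested, 9 had their highest signal on null replicate 8. Null replicate 8 held the highest signal of 34.1% of the 41 tested cycle genes and of 28.3% of all probe sets tested. Summed signals of B and plasma cell markers (105.8 and 102.2 in control, 108.7 and 164.3 in null liver, 4 genes) were also highest on that array. So were those of neutrophil markers (73.1 and 72.3, then 87.7 and 141.5, 7 genes, with Ngp at the floor). Of the B and plasma cell markers Jchain was highest on control replicate 8 (34.7) and the other genes on null replicate 8. Of the tested neutrophil markers S100a8 was highest on null replicate 8 (36.9), but Camp was highest on null replicate 7 (28.8) and Elane on control replicate 7 (23). Macrophage and stellate cell sums were highest on null replicate 8 too (3065.3 and 1654.8). Hepatocyte, endothelial, T and NK cell, red cell precursor and pancreatic acinar sums were highest on other arrays. The cholangiocyte sum was 7.4 and 35.5 in control and 21.8 and 45.9 in null liver. It was also highest on null replicate 8 but came from 3 genes, with 0 tested and Epcam at the floor. The part of these cell types in the cycle gene signals was not tested.

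**Figure D3:**
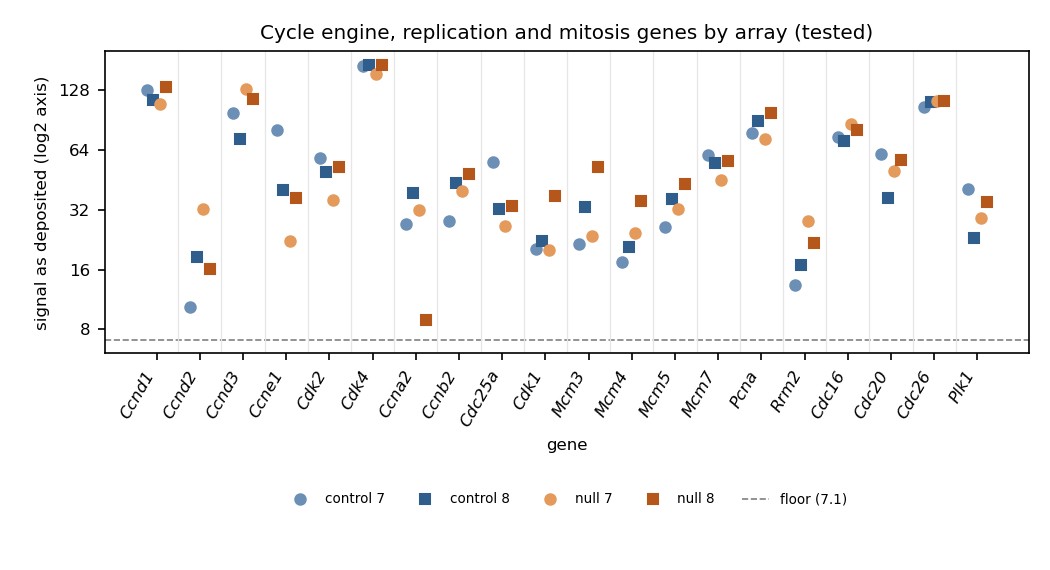
Deposited signal (vertical axis, log2 scale) of the 20 tested genes of G1, S to M phase, replication and mitosis on each of the 4 arrays, with control arrays in blue, null arrays in orange, and circles for replicate 7 and squares for replicate 8. The genotypes intermingle for most genes. Null replicate 8 is the highest point for 9 of the 20 and the lowest for Ccna2.

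**Figure D4:**
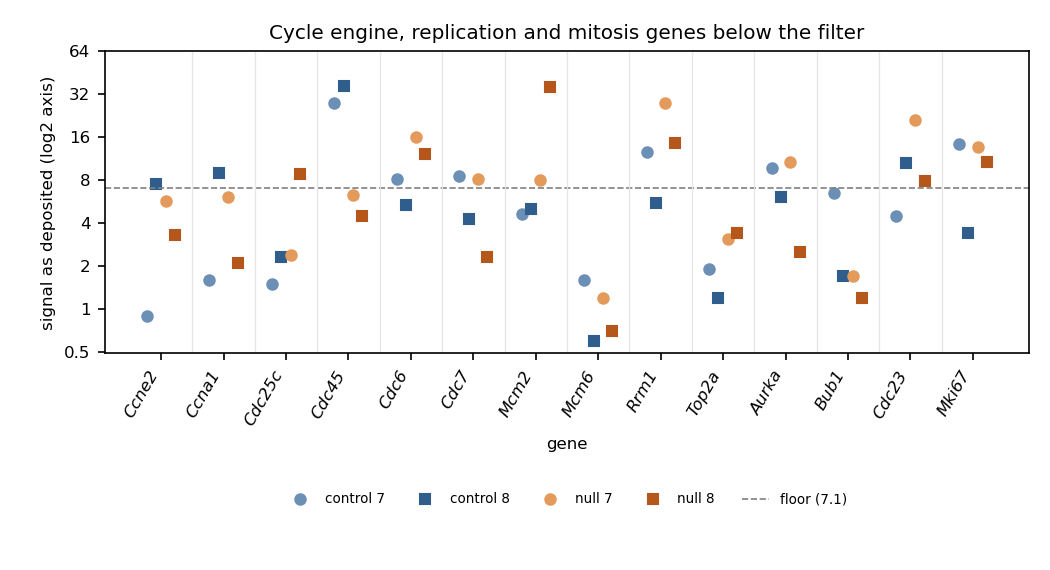
Deposited signal (vertical axis, log2 scale) of the 14 genes of the same roles with no tested probe set, by array as the probe set of highest mean signal, with the floor of 7.1 dashed. Top2a, Mcm6 and Bub1 lie below the floor on all 4 arrays, Cdc45 is above it on the control arrays only, and Mcm2 reaches 35.9 on null replicate 8.

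The brakes moved in no common direction. Of 12 genes, 7 were tested, with 4 positive and 3 negative changes. The negative ones include Cdkn2aipnl (-0.28), which matches by name and is not itself a kinase inhibitor. The median was 0.17 on the log2 scale, -0.34 without control replicate 8 and 0.43 without null replicate 7. The genotypes did not overlap for 2 of the 7 (28.6%), against 43.8% of all probe sets. Gadd45b, a stress-induced gene that is also a known target of the nuclear receptor CAR in liver, gave 29.0 and 33.6 in control and 44.3 and 70.9 in null liver. Both null arrays were above both control arrays, with a log2 change of 0.84 ± 0.30 (interval 0.12 to 1.57) that did not pass (adjusted p = 0.328). A second Gadd45b probe set, of a kind that can bind related transcripts, lay below the floor on both control arrays (1.3 and 0.7) and on null replicate 7 (5.2) and reached 35.5 on null replicate 8.

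The 250 bases before the Gadd45b start (chr10:80929841-80930090, plus strand), shown for the tested member with the largest positive change, hold CCAAT letters (capitals) and neither E2F nor CHR letters.
Gadd45b: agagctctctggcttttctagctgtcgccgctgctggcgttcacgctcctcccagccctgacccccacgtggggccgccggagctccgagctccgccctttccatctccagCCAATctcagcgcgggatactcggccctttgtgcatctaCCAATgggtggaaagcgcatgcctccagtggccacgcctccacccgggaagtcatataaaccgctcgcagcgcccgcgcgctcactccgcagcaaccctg

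The other Gadd45 genes differed from it. Gadd45g gave 124.8 and 37.0 in control and 38.3 and 34.1 in null liver. Control replicate 7 alone was high for Gadd45g, and the log2 change of -0.91 ± 0.52 was -0.03 without that array. Gadd45a gave 74.9 and 47.2 in control and 48.2 and 51.1 in null liver, again with control replicate 7 high, and its log2 change was -0.26 ± 0.27.

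Cdkn1a (p21), the inhibitor induced by p53, gave 40.7 and 13.7 in control and 15.8 and 44.8 in null liver. Each genotype had 1 high and 1 low array, so the log2 change of 0.17 ± 0.69 had an interval of -1.46 to 1.80. Cdkn2d (p19), an inhibitor of Cdk4 and Cdk6, had the same pattern, with 42.5 and 17.9 in control and 23.9 and 47.3 in null liver (0.29 ± 0.52). For both genes control replicate 7 and null replicate 8 were the high arrays, and the spread within a genotype was as large as any difference between genotypes. A dimmer Cdkn1a probe set, not tested, did not show this split and lay between 10.2 and 13.2 on all arrays.

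Cdkn2c (p18), of the same family as Cdkn2d, was tighter, with 52.8 and 58.3 in control and 70.8 and 74.7 in null liver. Its null arrays lay above its control arrays (log2 change 0.39 ± 0.19, adjusted p = 0.469). Cdkn2aipnl, which matches by name and is not itself a kinase inhibitor, was at -0.28 ± 0.29, with 53 and 74.6 in control and 63.7 and 42.1 in null liver. The untested Cdkn1b (p27), Cdkn1c (p57), Cdkn2a, Cdkn2b and Cdkn3 lay between 1.0 and 18.5 on every array and probe set. Cdkn1c gave 10.6 and 12.7 in control and 18.5 and 16.4 in null liver, and Cdkn2b gave 4.7 and 1.0 in control and 7.7 and 15.3 in null liver. These were the untested brakes whose genotypes did not overlap, with null higher in both. Both control signals of Cdkn2b lay below the floor. Of all 42 untested member probe sets 10 did not overlap. Null was lower for those of Cdc45, Mcm5 and Cdk14, which are not brakes, and higher for the rest. The share without overlap over all untested probe sets was not computed, so no direction of the untested brakes is read from these.

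**Figure D5:**
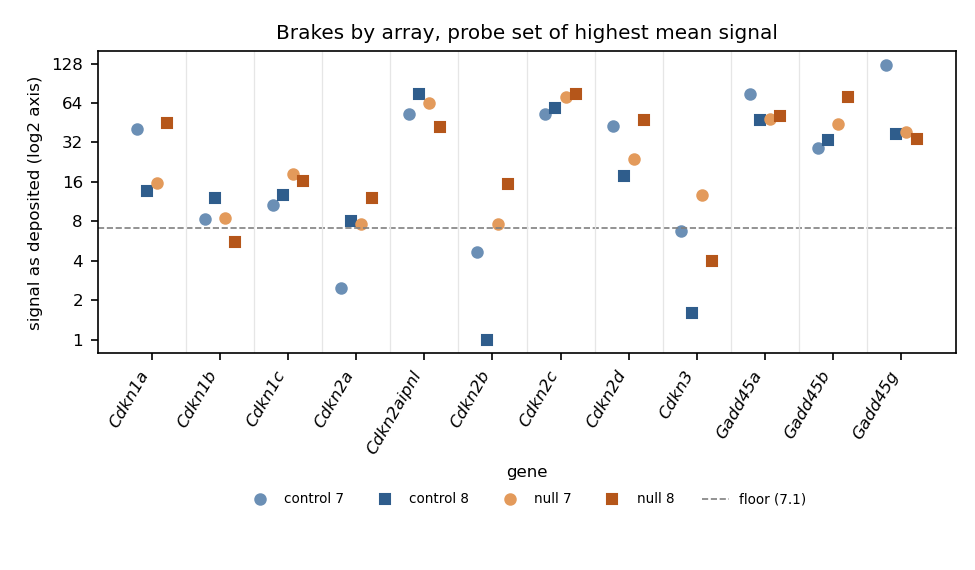
Deposited signal (vertical axis, log2 scale) of the 12 brakes by array as the probe set of highest mean signal, with the floor of 7.1 dashed. Gadd45b and Cdkn2c have both null arrays (orange) above both control arrays (blue), Gadd45g is high on control replicate 7 alone, and Cdkn1a and Cdkn2d are high on control replicate 7 and null replicate 8.

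The smallest p-values of the set in limma were those of Cdc34, Cdk8 and Cdc42se1, followed by that of the brake Gadd45b. Cdc34, Cdk8 and Cdc42se1 each had an SE below the median of 0.27 over the tested member probe sets. Cdc34, a ubiquitin-conjugating enzyme that works with the SCF ligase, gave 297.9 and 290.1 in control and 402.4 and 382.7 in null liver. Its arrays were close within each genotype and did not overlap, with a log2 change of 0.42 ± 0.12 (interval 0.14 to 0.70, adjusted p = 0.229) that stayed between 0.38 and 0.45 with arrays left out. Cdk8, a kinase of the Mediator complex of transcription, gave 156.6 and 156.0 in control and 115.5 and 79.2 in null liver. Both null arrays lay below the control arrays, by -0.71 ± 0.21 on the log2 scale (adjusted p = 0.251).

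Cdc42se1, a small effector of the GTPase Cdc42, gave 72.6 and 83.0 in control and 115.2 and 111.0 in null liver (log2 change 0.54 ± 0.17, adjusted p = 0.268). Cdc42se2 was at 0.36 ± 0.26, with 32.5 and 41.9 in control and 43.4 and 51.7 in null liver. Both of these effectors had null arrays above control arrays, while Cdc42 itself was at 0.16 with an interval of -0.20 to 0.52 and overlapped.

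Cdc123, a factor in assembly of the translation initiation factor eIF-2, gave 229.7 and 230.1 in control and 168.2 and 187.4 in null liver (log2 change -0.37 ± 0.14, adjusted p = 0.342). Cdk18, a kinase of the PCTAIRE group, gave 166.1 and 176.8 in control and 220.1 and 217.8 in null liver (0.35 ± 0.14, adjusted p = 0.350). Neither gene overlapped between genotypes, and the arrays of a genotype lay close to each other. Cdk2ap1, a Cdk2-binding protein, gave 308.2 and 268.4 in control and 179.1 and 264.4 in null liver and stood at -0.40 ± 0.20. Ccndbp1, which binds D cyclins, gave 112.2 and 154.8 in control and 174.0 and 169.4 in null liver (0.38 ± 0.19). Null replicate 7 was the low array for Cdk2ap1 and control replicate 7 the low array for Ccndbp1.

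Cyclin G2 (Ccng2), a cyclin of resting and arrested cells, gave 42.5 and 41.5 in control and 59.2 and 51.8 in null liver, without overlap (0.40 ± 0.22, adjusted p = 0.517). Cyclin G1 (Ccng1), a p53 target, gave 19.3 and 24.8 in control and 30.5 and 23.5 in null liver and overlapped (0.29 ± 0.38). Cdk7, of the kinase that activates other Cdks, gave 17.5 and 16.1 in control and 31.4 and 15.8 in null liver, with null replicate 7 alone high (0.41 ± 0.51). Cdk9, of transcription elongation, and Cdc37, a kinase chaperone, each stood at -0.27 (± 0.15 and ± 0.16). The remaining tested members not yet named (Cdc5l, Cdk11b, Cdk16, Cdk5, Cdk5rap3, Cdk2ap2 and Cdc42ep4) had log2 changes of -0.26 to 0.24. Of the untested members outside these roles, Ccnb1ip1, Cdk14, Cdk5r1, Cdk5r2, Cdkl2 and Cdc73 gave signals of 1.5 to 23.4, and Cdkl2 had null arrays (17.7 and 23.4) above control arrays (9.2 and 12.8), whereas a probe set of Cdk14 had null arrays (9.9 and 8.7) below control arrays (12.3 and 10.9).

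Other genes of the pathway gave a like picture. Of 35 listed replication genes outside the rule 18 were tested, and 0 passed in either direction by limma over all probe sets (0 at an unadjusted p under 0.05). Their median log2 change was 0.04. The licensing inhibitor geminin (Gmnn) gave 32.9 and 20 in control and 54.1 and 38.9 in null liver (0.84 ± 0.36), and Rpa1, of the single-strand binding protein, was at 0.70 ± 0.32, high on null replicate 8. Orc6, of the origin complex, was at -0.67 ± 0.52 and Chaf1b, of chromatin assembly, at 0.47 ± 0.34. Of 39 mitosis and checkpoint genes 17 were tested and 0 passed (0 at an unadjusted p under 0.05), with a median of -0.01. The largest log2 changes among them were those of Kif23 (1.45 ± 0.62), a motor of cytokinesis, and Smc3 of cohesin (-1.31 ± 0.65, low on null replicate 8). Incenp of the Aurora B complex (0.80 ± 0.48) and Stmn1 (0.64 ± 0.34), a tubulin-binding protein, followed. Kif23 was dim in control liver (2.9 and 15.5, the first below the floor), and so was Incenp (14.9 and 14.3).

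Of 22 genes of transcription control of the cycle 11 were tested, and 1 rose by limma, the AP-1 factor Jun (2.01 ± 0.23, adjusted p = 0.0296), with 0 lower, beside 0.304% higher among all probe sets tested. Jun gave 21.8 and 23.5 in control and 84.4 and 97.8 in null liver. Its call was lost with a floor at the 50th percentile (adjusted p = 0.203), without the filter (0.228), without an intensity trend (0.205) and without any 1 of the arrays (0.0824 to 0.217), while its log2 change stayed between 1.47 and 2.11 over all alternatives. Fos was at 260.7 on null replicate 7 alone, against 9.4, 19.7 and 7.7 elsewhere (1.72 ± 1.45). Foxm1, an activator of mitotic genes, was at -0.45 ± 0.35 and Rb1, the retinoblastoma protein, at -0.33 ± 0.46. Apart from Jun, 0 of these genes had an unadjusted p under 0.05. Of 25 p53 targets 15 were tested, which include the members Ccng1, Cdkn1a and Gadd45a, and 0 passed by limma (1 higher and 2 lower at an unadjusted p under 0.05, or 20% beside 12.6% of all probe sets). Their median was 0.12, with 8 positive and 7 negative. In size Rrm2b, the p53-induced reductase subunit, led at 1.36 ± 0.57 on the log2 scale. Phlda3 (0.71 ± 0.55), Btg2 (0.63 ± 0.34) and Fas (0.58 ± 0.43) followed. The probe sets of Rrm2b and Fas are of kinds that can bind related transcripts, and Rrm2b was dim in control liver (8.2 and 17). Btg2 was high on null replicate 7 alone (172, against 73.3, 78.2 and 79.9 elsewhere). Among the negative ones were Plk2 (-0.43 ± 0.19), a stress kinase, and the 2 with an unadjusted p under 0.05, Ei24 (-0.30 ± 0.10, adjusted p = 0.305) and Perp (-0.28 ± 0.11, adjusted p = 0.359). These negative ones were chosen after their values were seen.

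The trimmed mean signal (2% from each end) of the arrays was 98.7 to 98.8 without control probe sets and their medians 26.2 to 28.4, and 24.7% to 25.6% of probe sets lay at or below the floor. Of the 96 member probe sets 7 lay there on all arrays (7.29%), against 12.3% of all probe sets. Hepatocyte markers summed to 44658.3 and 44874.4 in control and 44413.9 and 42031.9 in null liver, with 0 of 8 at the floor on all arrays. The bright Serpina1c, Alb and Apoa1 carried most of that sum. Of the hepatocyte markers 4 changes were positive and 4 negative (median log2 change -0.01). Ttr (-0.63 ± 0.14) and Tdo2 (-0.38 ± 0.06) had the largest, both lower in null liver, and the largest positive one was 0.16 for Hnf4a. Summed signals of macrophage and stellate cell markers were higher on both null arrays. Macrophage markers (11 genes) summed to 2259 and 2251 in control and 2857 and 3065.3 in null liver, and stellate cell markers (7 genes) to 1051.3 and 1106.4, then 1381.8 and 1654.8. Of the macrophage markers 10 changes were positive and 1 negative, and of the stellate cell markers 7 were positive and 0 negative. Endothelial markers (6 genes) summed to 975 and 1004.8, then 1157 and 1065.1, but 2 of their changes were positive and 4 negative (median log2 change -0.04), and the bright Eng carried the sum (618.5 and 629.1, then 762.7 and 704.9). Their part in the signals of the cycle genes was not tested. Pancreatic acinar markers (5 genes), which liver should lack, summed to 2810.3 on null replicate 7 against 229.2 to 353.3 elsewhere. No member was called with that array in the fit, so leaving it out could not take a call away. Without it the median log2 change was 0.15 for the cycle genes other than brakes and 0.43 for the brakes. With all arrays these medians were 0.16 and 0.17. The part of the acinar signal in the cycle gene signals was not tested.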

How the data were processed

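Each probe set has 1 deposited intensity per array, on a linear scale. Per the labels, the authors obtained it in Affymetrix GCOS by weighing matched against mismatched probes, and scaled arrays by their total fluorescence. The GCOS version and scaling target were not given in the sources used here. No count of reads underlies arrays, and the number of arrays limits the precision. Control probe sets (66) were left out. Signals were floored at 7.1 (25th percentile of all signals pooled) and converted to log2. The 7241 probe sets with a mean above log2 of 16.8 (40th percentile) were tested with limma 3.58.1 in R 4.3.3 (lmFit, eBayes with an intensity trend, genotype as the only term, two-sided), with Benjamini-Hochberg adjustment over all of them. A dim gene's change is understated. An exact permutation test of 2 against 2 arrays cannot go below 0.333. Names came from the platform annotation, updated to GRCm38.p6. The members and lists were chosen with earlier results of these data known, so lists are described by counts and medians without a test. Values on every array are given for all tested brakes, the 20 tested other genes with the largest changes, and others where a role called for it. Arrays of 1 replicate number were not paired in the main analysis: the labels do not state a pairing. The steps were tested on simulated data.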

Additional observations from a re-analysis of the deposited data

How the results depend on the processing

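No member was called under any of the 10 alternatives (0 higher and 0 lower in limma each time, the replicate block and every left-out array included), and the smallest adjusted p of a tested member over all of them was 0.119. With an array left out, the genotype with 1 array was assumed to vary like the other. Replicate numbers occur in both genotypes, and the deviations of same-numbered arrays correlated at -0.03 over 7241 probe sets (2 pairs), so the numbers were not taken to pair the arrays. With the replicate block 37 probe sets were higher and 15 lower among all tested, against 22 and 6. Calls over all probe sets came to 0 higher and 0 lower in limma with a floor at the 50th percentile, without the filter and without an intensity trend (unadjusted p under 0.05 in the main setting: 446 higher and 468 lower), to 30 higher and 12 lower with quantile normalization, and to 10 to 13 higher and 0 to 4 lower with arrays left out. The cause was not tested. The median change of the cycle genes other than brakes ran from 0.07 (without null replicate 8) to 0.15 with arrays left out, with 0.10 without control replicate 7, and from 0.11 to 0.17 otherwise. The median of the brakes ran from -0.34 (without control replicate 8) to 0.43.

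Of 54 tested member probe sets 35 kept their sign without each array in turn. The log2 changes that turned ran from -0.16 to 0.13 for Ccnd1 (brighter probe set), -0.19 to 0.55 for Cdc20, -0.02 to 0.34 for Cdc42, -0.21 to 0.11 for Cdc42ep4, -0.08 to 0.82 for Cdk1, -0.03 to 0.25 and -0.22 to 0.61 for Cdk11b (its tested probe sets), -0.52 to 0.13 for Cdk16, -0.54 to 0.38 and -0.14 to 0.01 for Cdk4 (dimmer and brighter probe set), -0.26 to 0.10 for Cdk5rap3 (dimmer probe set), -0.09 to 0.90 for Cdk7, -0.61 to 0.96 for Cdkn1a, -0.58 to 0.02 for Cdkn2aipnl, -0.34 to 0.91 for Cdkn2d, -0.59 to 0.07 for Gadd45a, -0.17 to 0.98 for Mcm3, -0.21 to 0.24 for Pcna and -0.35 to 0.47 for Plk1 (brightest probe set). A floor at the 50th percentile gave 0.13 for Cdk4 (dimmer probe set), -0.06 for Plk1 (brightest probe set) and 0.00 for Cdc5l (dimmer probe set). Quantile normalization gave -0.01 for Plk1 and 0.00 for Ccnd1 (brighter probe set).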
